A study of Homo sapiens with 5 samples.

Results

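The ribosomal stalk P proteins RPLP0, RPLP1 and RPLP2, and MRTO4, the assembly factor that holds the place of RPLP0 on the immature large subunit, were examined in ribosome footprints of HAP1 cells. They are 4 of the 13638 rows of the deposited count table, 1 row for each symbol, and were picked by symbol with earlier results of the same genotype comparison known. The knockout group (3 libraries) consisted of HAP1 cells with a knockout of ZCCHC4, a methyltransferase that adds a methyl group to an adenosine of 28S ribosomal RNA, and the wild-type group (2 libraries) of HAP1 cells labelled wild type. HAP1 is a near-haploid human line that descends from a chronic myeloid leukaemia. The labels name no treatment, and do not say how many clones or cultures the libraries came from, so the spread between libraries may be technical.

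Ribosome footprints are pieces of mRNA protected by a ribosome against nuclease digestion. Their number rises with mRNA abundance and with the ribosomes on each mRNA, and since RNA-seq was not used here these were not separated. In a bulk lysate, more cells carrying footprints of a gene and more footprints per cell cannot be told apart either.

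The stalk is a flexible arm of the large ribosomal subunit that recruits and stimulates the translational GTPases. RPLP0 anchors it on the 28S ribosomal RNA beside RPL12 and carries heterodimers of RPLP1 and RPLP2, and all P proteins end in the same acidic tail, which contacts elongation factors and which some plant toxins bind. In yeast, the RPLP0 relative Mrt4 occupies the RPLP0 site in the nucleus and is released with the help of the phosphatase Yvh1 before the stalk is built. MRTO4 and DUSP12 are the human counterparts of Mrt4 and Yvh1.

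The shared tail can be seen in the ends of the coding sequences, given here 5′ to 3′ with the stop codon, because they show how alike the P genes are and where single bases still differ. Capitals mark positions where RPLP0, RPLP1 and RPLP2 hold the same base, and in MRTO4 the bases that match those shared positions.
RPLP0: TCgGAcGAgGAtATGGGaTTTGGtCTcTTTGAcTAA
RPLP1: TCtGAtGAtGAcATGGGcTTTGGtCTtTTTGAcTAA
RPLP2: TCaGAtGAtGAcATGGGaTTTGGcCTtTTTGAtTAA
MRTO4: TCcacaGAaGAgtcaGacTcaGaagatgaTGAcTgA
On GRCh38 with GENCODE release 29 these lie at chr12:120196773-120196808 (minus strand), chr15:69455472-69455507, chr11:812801-812836 and chr1:19258795-19258830 (plus strand). The P genes shared 28 of these 36 positions, and MRTO4 matched 14 of the shared bases.

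Messenger RNAs of ribosomal proteins usually begin with a run of pyrimidines, the terminal oligopyrimidine tract, through which their translation responds to growth signals. The starts of the members are shown for that reason, from 10 bases before to 20 bases from the RefSeq transcription start (GRCh38.p14), with the longest run of C or T in capitals.
RPLP0: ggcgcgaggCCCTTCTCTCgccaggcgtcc
RPLP1: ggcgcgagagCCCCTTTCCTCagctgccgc
RPLP2: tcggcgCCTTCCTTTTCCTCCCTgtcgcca
MRTO4: aacggggtgcaccgTCTTCCgccgcacgtg
The windows are chr12:120201092-120201121 (minus strand), chr15:69452808-69452837, chr11:809957-809986 and chr1:19251795-19251824 (plus strand). The runs were 10 bases in RPLP0, 11 in RPLP1, 17 in RPLP2 and 6 in MRTO4. A run of at least 7 bases, read on the transcribed strand only, stood in the windows of the 3 P genes, in 39 of the 49 other ribosomal protein genes found in the table of promoters, and in 19.3% of all 35116 promoters. MRTO4 did not hold such a run in this window. These are matches of letters, with no measurement of starts in HAP1 cells.

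Knockout libraries held between 16940732 and 31557573 counts and wild-type libraries 5302160 and 4887380, so depth moved with genotype. Levels are given in CPM, library-scaled counts adjusted by the trimmed mean of M values (TMM). ZCCHC4 itself was at 3.85, 3.41 and 4.98 CPM in knockout libraries, against 16.0 and 13.3 CPM in wild type. Knockout replicate 2 stood apart from replicates 1 and 3, since chi-square divided by its degrees of freedom was 27.7 and 24.6 in those pairs. It was 2.97 between replicates 1 and 3 and 1.14 in the wild-type pair, where 1 would be counting error alone. As this measure grows with depth, it does not rank the spread of the genotypes. Libraries were treated as replicates in the tests below, whose p-values may thus cover technical spread only. Of the 10 blood cell markers listed, PTPRC, GATA1, SPI1, RUNX1 and MYB had no row and CD33, CD34 and LYL1 averaged under 1 CPM in each genotype. The stem cell factor receptor gene KIT was at 1.64 ± 0.256 CPM in the knockout and 11.3 ± 1.14 CPM in wild type, and TAL1 at 5.43 ± 0.613 CPM in the knockout and 8.54 ± 2.57 CPM in wild type. Vimentin, a filament protein, was at 511 ± 18.8 CPM in the knockout and 132 ± 12.2 CPM in wild type (SD, n = 3 and n = 2 throughout). These differences accompany the genotype as those below do, and their part in the stalk values was not tested.

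Over all 11205 genes tested, the quasi-likelihood test of edgeR (Benjamini-Hochberg adjusted p) called 60% of genes, 30.2% higher and 29.8% lower in the knockout. Scaling by library totals instead of TMM gave 2391 higher and 4564 lower calls, and it lowered the median log2 fold change over all genes to -0.20, against 0.02 with TMM. A log2 fold change near that size depends on the scaling.

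RPLP1, one partner of the P1-P2 dimer that carries the mobile tails, had the largest difference among the 4 genes. It was at 1745, 1932 and 1795 CPM in the knockout libraries, against 435 and 455 CPM in the wild-type libraries. The lowest knockout library lay far above the highest wild-type library, and the knockout libraries differed little among themselves. The means were 1824 ± 96.4 CPM in the knockout and 445 ± 14.5 CPM in wild type (SD, n = 3 and n = 2). The log2 fold change was 2.04 ± 0.07 (SE), or 4.10-fold. Of all genes tested, 2.27% had a larger log2 fold change, and none of the 65 cytosolic ribosomal protein genes tested did. As the comparison had been seen when the genes were picked, these values are a description and carry no test. RPLP1 lies on chromosome 15, 69452784 to 69456194 (ENST00000260379, ENSG00000137818, plus strand, 4 exons), and codes for 114 amino acids.

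RPLP2, the partner of RPLP1, differed far less. Its levels were 1324, 1237 and 1303 CPM in the knockout libraries, against 1120 and 1051 CPM in wild type. The groups did not overlap, but the gap between the lowest knockout and the highest wild-type library was only a little wider than the range within the knockout. Means of 1288 ± 45.6 CPM in the knockout and 1085 ± 48.7 CPM in wild type gave a log2 fold change of 0.25 ± 0.06 (SE), which was 0.028 with library totals. RPLP2 (ENST00000321153, ENSG00000177600, chromosome 11, 809647 to 812875, plus strand, 5 exons) codes for 115 amino acids, 1 more than RPLP1, so counts of the dimer partners can be set side by side almost without a correction for length.

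RPLP0, the anchor of the stalk, was intermediate. It was at 1339, 1581 and 1316 CPM in the knockout libraries, against 718 and 701 CPM in wild type. Knockout replicate 2, the library that stands apart, was the highest, and all knockout libraries exceeded both wild-type libraries. The means were 1412 ± 147 CPM in the knockout and 710 ± 11.8 CPM in wild type, a log2 fold change of 0.99 ± 0.09 (SE), or 0.90 without knockout replicate 2. RPLP0 (ENST00000392514, ENSG00000089157, chromosome 12, 120196686 to 120201211, minus strand, 8 exons) codes for 317 amino acids.

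MRTO4, the assembly placeholder, had the lowest level of the 4 and a small difference. Its values were 224, 208 and 224 CPM in the knockout libraries, against 153 and 156 CPM in the wild-type libraries. Replicate 2 was the lowest knockout library here, whereas it was the highest for RPLP0 and RPLP1. Means of 219 ± 9.18 CPM in the knockout and 155 ± 1.67 CPM in wild type gave a log2 fold change of 0.50 ± 0.08 (SE), or 0.28 with library totals. MRTO4 (ENST00000330263, ENSG00000053372, chromosome 1, 19251539 to 19260128, plus strand, 8 exons) codes for 239 amino acids. In all 4 genes every knockout library lay above every wild-type library, an arrangement that 38.5% of all genes tested showed (37.9% had every knockout library below, so 76.4% had no overlap) and that the choice of genes may carry.

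**Figure D1:**
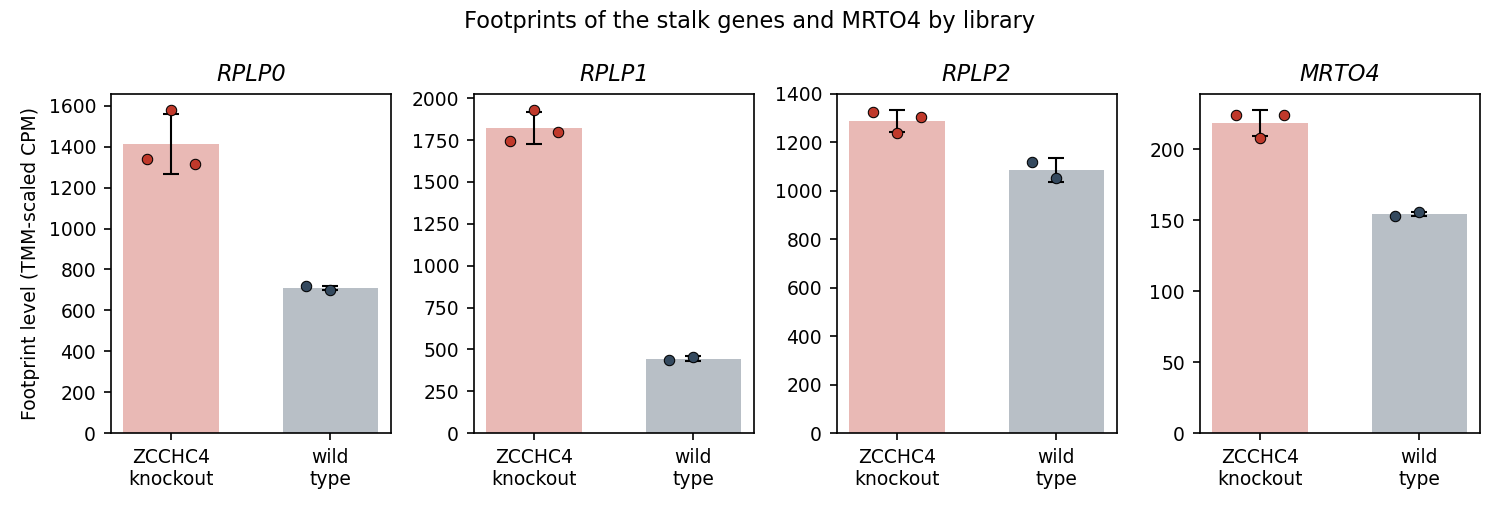
Footprint level of RPLP0, RPLP1, RPLP2 and MRTO4 in TMM-scaled CPM, with a separate vertical axis starting at 0 for each gene. Points are libraries, bars are means and lines are SD (knockout n = 3, wild type n = 2); RPLP1 averaged 1824 CPM in the knockout and 445 CPM in wild type, while RPLP2 averaged 1288 CPM in the knockout and 1085 CPM in wild type.

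Ratios of counts within a library do not depend on the scaling between libraries, and they showed the order of the dimer partners turning over. RPLP1 had 1.32, 1.56 and 1.38 counts for each count of RPLP2 in the knockout libraries, against 0.388 and 0.433 in the wild-type libraries. RPLP2 thus had the larger count in both wild-type libraries and RPLP1 in all 3 knockout libraries. Exact 95% binomial intervals, which cover counting error only, ran from 1.30 to 1.59 over the knockout libraries and from 0.371 to 0.454 over the wild-type libraries. On the log2 scale the ratio was 0.50 ± 0.13 in the knockout and -1.29 ± 0.11 in wild type (SD, n = 3 and n = 2), a difference of 1.79 that ran from 1.71 to 1.87 when any single library was left out.

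The other pairs shifted in both directions. RPLP1 had 1.30, 1.22 and 1.36 counts for each count of RPLP0 in the knockout libraries, against 0.605 and 0.649 in wild type, a log2 difference of 1.05. RPLP2 had 0.989, 0.782 and 0.990 counts for each count of RPLP0 in the knockout libraries, against 1.56 and 1.499 in wild type, a log2 difference of -0.74. The value of knockout replicate 2 was well under those of the other knockout libraries, and the difference was -0.63 without it. MRTO4 had 0.167, 0.132 and 0.171 counts for each count of RPLP0 in the knockout libraries, against 0.214 and 0.222 in wild type, so the placeholder was lower relative to the protein that replaces it (log2 difference -0.49, or -0.37 without knockout replicate 2). In none of these 4 ratios did the libraries of the genotypes overlap. The ratios share the same 4 genes, picked with this comparison known, and 76.4% of single genes tested had no overlap either. The share over gene pairs at large was not computed.

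**Figure D2:**
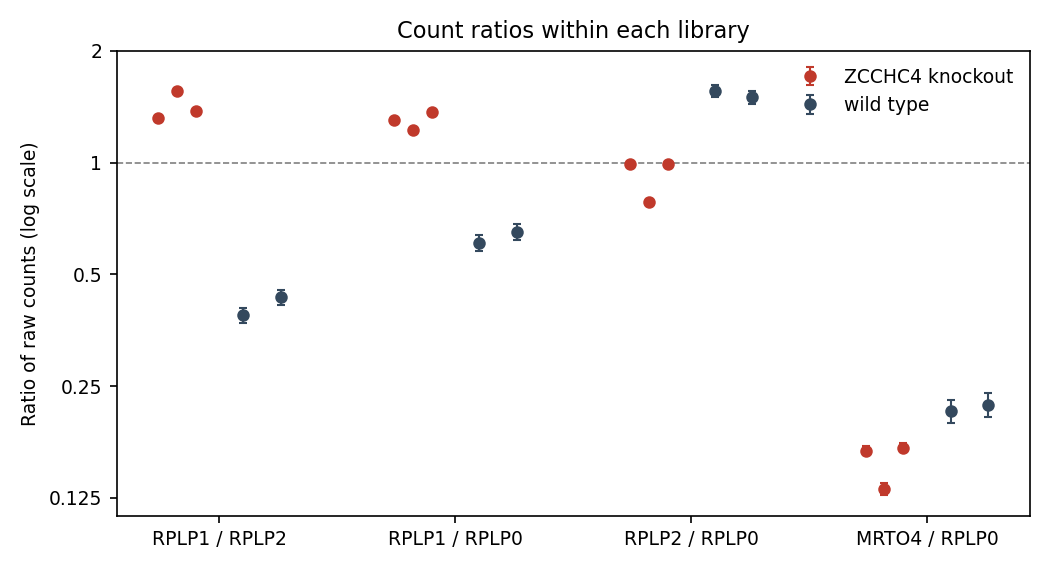
Ratio of raw counts of gene pairs in each library, on a log axis with a dashed line at equal counts. Points are libraries and lines are exact 95% binomial intervals, which cover counting error only; RPLP1 over RPLP2 lay at 1.32 to 1.56 in the knockout and at 0.388 to 0.433 in wild type, on opposite sides of equal counts.

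Set against the rest of the large subunit, RPLP2 did not stand apart between genotypes while RPLP1 and RPLP0 did. The counts of the 37 other large-subunit proteins tested added up to 5.00, 4.83 and 5.01% of the knockout libraries and 4.87 and 4.84% of the wild-type libraries. RPLP2 counts equalled 2.48, 2.44 and 2.43% of that sum in the knockout libraries and 2.51 and 2.38% in wild type, and these ranges overlapped. RPLP1 counts equalled 3.26, 3.81 and 3.35% in the knockout libraries, against 0.976 and 1.03% in wild type, a 3.47-fold difference of the means. RPLP0 counts equalled 2.50, 3.12 and 2.46% in the knockout libraries, against 1.61 and 1.59% in wild type, a 1.68-fold difference. MRTO4 counts equalled 0.419, 0.411 and 0.419% of the sum in the knockout libraries, against 0.344 and 0.352% in wild type.

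Levels per codon allow the members to be compared with each other, because a longer coding sequence collects more footprints at the same rate of synthesis. In the knockout, RPLP1 was highest at 16.0 ± 0.846 CPM per codon, followed by RPLP2 at 11.2 ± 0.397, RPLP0 at 4.45 ± 0.464 and MRTO4 at 0.916 ± 0.0384 CPM per codon. In wild type the order began with RPLP2 at 9.44 ± 0.424 CPM per codon, followed by RPLP1 at 3.90 ± 0.127, RPLP0 at 2.24 ± 0.0372 and MRTO4 at 0.647 ± 0.00698 CPM per codon. Neighbours in each order were further apart than the SD of either, and their library values did not overlap.

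A ribosome carries a single RPLP0 with dimers of RPLP1 and RPLP2. Equal densities of the dimer partners would correspond to equal production only if ribosome speed and the counting of reads were alike for both genes. Neither was tested. Per codon, RPLP1 exceeded RPLP2 1.33-, 1.58- and 1.39-fold in the knockout libraries, and stood at 0.392 and 0.437 of it in the wild-type libraries. RPLP1 exceeded RPLP0 3.63-, 3.397- and 3.79-fold in the knockout libraries, against 1.68- and 1.80-fold in wild type. RPLP2 exceeded RPLP0 2.73-, 2.16- and 2.73-fold in the knockout libraries, against 4.30- and 4.13-fold in wild type. Among the 65 cytosolic ribosomal protein genes ranked by mean density, RPLP1 was 5th in the knockout and 57th in wild type, RPLP2 was 12th in the knockout and 16th in wild type, and RPLP0 62nd in the knockout and 64th in wild type. The densities of RPLP1 and RPLP2 rest on short coding sequences, in which footprints gathered at the start codon weigh more, and positions along the mRNA were not analysed here.

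**Figure D3:**
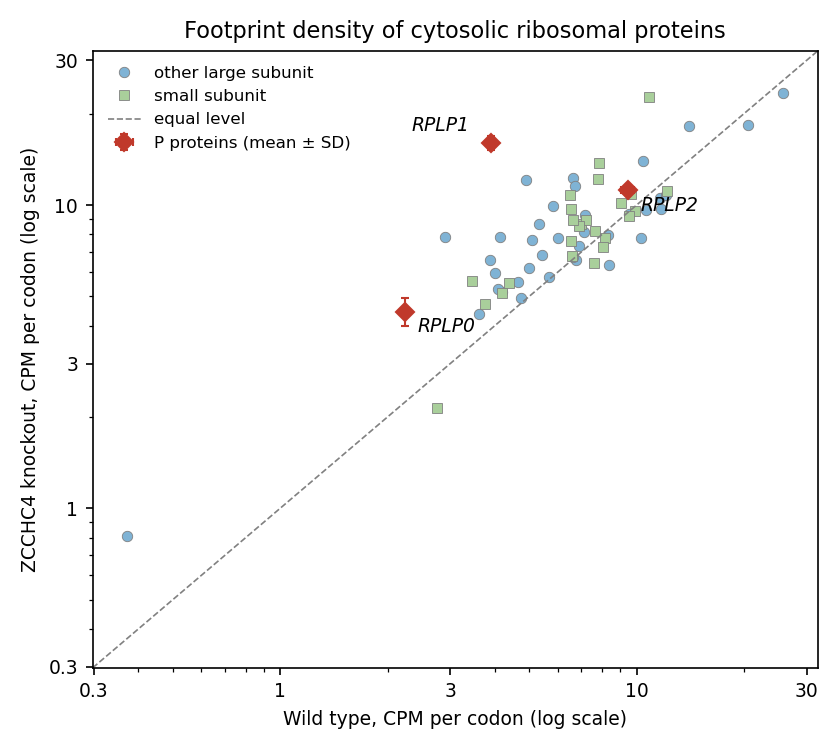
Footprint density in CPM per codon, on log axes, for 65 cytosolic ribosomal protein genes, with knockout means (n = 3) on the vertical axis and wild-type means (n = 2) on the horizontal axis. Red diamonds are the P proteins with SD on both axes and the dashed line marks equal density; RPLP1 lies well above the line at 16.0 in the knockout and 3.90 in wild type, and RPLP2 near it at 11.2 in the knockout and 9.44 in wild type.

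Near-identical copies make the single values uncertain, because the treatment of reads that map to several places is not given in the sources used here. Of the 28-base stretches of coding sequence, the shortest footprint kept, 71.1% of those of RPLP1, 85.0% of RPLP0, 26.1% of RPLP2 and 30.1% of MRTO4 also occurred exactly in a GENCODE transcript of another gene. For RPLP1 these were 13 genes, 12 of them annotated as pseudogenes, and for RPLP0 11 genes, all annotated as pseudogenes, of which RPLP0P6 alone held 686 of 924 stretches. RPLP2 shared stretches with 3 pseudogenes and MRTO4 with 2. No row of the count table carried the name of a pseudogene of these 4 genes.

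Among the P proteins, RPLP0 and RPLP1 had larger shares of repeated stretches and larger log2 fold changes than RPLP2, although RPLP0 had the larger share and RPLP1 the larger fold change. Over the 62 other ribosomal protein genes the median share was 79.8% (range 17.7 to 100.0%), so RPLP1 and RPLP0 were close to the typical gene and RPLP2 was near the low end. Over all 65 genes, the share of repeated stretches and the log2 fold change had a Pearson correlation of 0.10 and a Spearman correlation of 0.06, given as a description of genes that share libraries and sequence. The 8 genes with the largest log2 fold changes, RPLP1 and RPLP0 among them, had shares of 71.1 to 100.0%. Coding length, GC content and GC content at the last base of codons gave Pearson correlations of 0.03, 0.01 and -0.15 over the same genes. The part of repeated sequence in the values of the stalk genes was not tested. The genomic span of the RPLP2 transcript, introns included, also overlaps PIDD1 on the other strand at its start. It holds the small nucleolar RNA gene SNORA52 on the same strand. The span of the MRTO4 transcript overlaps EMC1 on the other strand. PIDD1 reaches to 809753 and EMC1 to 19251552, short of the RefSeq start windows given above. Overlap with exons was not examined, and whether the counting used strand is not given in the sources used here.

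RPLP1 lay above all other cytosolic ribosomal protein genes tested in log2 fold change, whereas 5 of the 65 lay above RPLP0 and 36 above RPLP2. Of 44 large-subunit genes listed besides the P proteins, 37 were tested, of which 22 rose, 4 fell and 11 failed to pass. Among all genes tested, 30.2% were called higher and 29.8% lower. The median log2 fold change of the 37 genes was 0.30, against 0.02 for all genes tested. RPL7A rose to 2087 ± 45.8 CPM in the knockout, against 772 ± 23.4 CPM in wild type (1.44 ± 0.06, edgeR adjusted p = 3.07e-07). RPL23A and RPL21 rose as well, by 1.31 ± 0.06 and 0.89 ± 0.06 on that scale. In the small subunit 25 of 32 listed genes were tested, of which 14 rose, 2 fell and 9 failed to pass, and the median was 0.29. RPS29, RPS4X and RPS13 rose, with log2 fold changes of 1.06 ± 0.07, 0.72 ± 0.05 and 0.64 ± 0.06. With library totals the large subunit gave 14 rises and 12 falls and the small subunit 7 and 7. The excess of rises over falls thus depended on the scaling. Over all genes tested, library totals gave 2391 rises and 4564 falls, an excess of falls that these lists did not share. Without wild-type replicate 1 or 2 the large-subunit falls were 2 in each case, the small-subunit rises 8 and 9 and the small-subunit falls 1 in each case, and without knockout replicate 2 the small-subunit falls were 4.

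Of the proteins that surround the stalk on the subunit, RPL12, RPL23 and RPL10 rose and RPL9 did not pass. These 3 rises became 2 with library totals, and also 2 with the replicate number as a replicate block. RPL12, which forms the stalk base with RPLP0, rose to 721 ± 47.9 CPM in the knockout, against 597 ± 2.31 CPM in wild type (0.27 ± 0.07, edgeR adjusted p = 0.00955), a size near the shift that library totals give. RPL23, next to the loop of 28S RNA that factors touch, rose to 1388 ± 19.3 CPM in the knockout, against 814 ± 1.11 CPM in wild type (0.77 ± 0.06). RPL10, whose loading ends subunit maturation, had a log2 fold change of 0.42 ± 0.07 and rose. RPL9 did not pass, at 1789 ± 138 CPM in the knockout and 1834 ± 17.0 CPM in wild type (adjusted p = 0.686).

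Factors that use the stalk were called about as often as genes at large, of which 60% were called, 30.2% higher and 29.8% lower. Of the 12 genes listed, GTPases and the recycling factor ABCE1, 11 were tested, of which 1 rose, 5 fell and 5 failed to pass, and the median log2 fold change was -0.08. The riser was EIF5B, the GTPase of subunit joining, at 417 ± 88.5 CPM in the knockout and 220 ± 10.2 CPM in wild type (0.92 ± 0.16, edgeR adjusted p = 0.00100). GTPBP2 and GTPBP1, GTPases related to elongation factors, fell, with log2 fold changes of -1.01 ± 0.13 and -0.62 ± 0.10. The translocase EEF2, which the stalk recruits, was at 4047 ± 645 CPM in the knockout and 3489 ± 49.1 CPM in wild type, and did not pass (adjusted p = 0.118). EEF1A1, the main carrier of aminoacyl-tRNA, had no row and was not analysed here. Its near-identical paralog EEF1A2, named after its value was seen and uncertain because of that likeness, fell to 694 ± 60.9 CPM in the knockout, against 887 ± 36.1 CPM in wild type. The single rise became 2 without knockout replicate 1 or 3 and 4 without replicate 2, and the falls became 2 and 3 without wild-type replicate 1 and 2.

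MRTO4 leaves during late maturation of the large subunit. Of 19 factors of that stage listed, 18 were tested, of which 7 rose, 4 fell and 7 failed to pass, a share of calls near the 60% of all genes, and the median was 0.20. LSG1, a GTPase that releases the export adaptor, rose to 106 ± 2.82 CPM in the knockout, against 51.8 ± 9.36 CPM in wild type (1.04 ± 0.11, edgeR adjusted p = 6.88e-05). ZNF622, the counterpart of yeast Rei1, and PA2G4, the counterpart of yeast Arx1, rose, with log2 fold changes of 0.95 ± 0.11 and 0.66 ± 0.07. DUSP12, the counterpart of the phosphatase that releases Mrt4 in yeast, was at 23.2 ± 1.46 CPM in the knockout and 28.4 ± 1.58 CPM in wild type and did not pass (adjusted p = 0.0511). EIF6, which keeps the subunits apart until maturation ends, was at 206 ± 30.7 CPM in the knockout and 177 ± 0.398 CPM in wild type and did not pass either (adjusted p = 0.129). The rises numbered 12 without knockout replicate 2, the falls numbered 1 without wild-type replicate 1, and all 4 falls were lost without wild-type replicate 2.

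Casein kinase 2 phosphorylates the tails of the P proteins. Its catalytic subunit gene CSNK2A2 fell to 107 ± 2.52 CPM in the knockout, against 132 ± 3.58 CPM in wild type (-0.30 ± 0.08, edgeR adjusted p = 0.00858), a call that was lost without wild-type replicate 1 or 2, and CSNK2A1 did not pass, at 35.9 ± 5.81 CPM in the knockout and 38.3 ± 4.93 CPM in wild type. The kinase GCN2, encoded by EIF2AK4, can be activated by the stalk, and was at 68.9 ± 3.05 CPM in the knockout and 73.4 ± 0.839 CPM in wild type, without passing (adjusted p = 0.395). Its ribosome-bound partner GCN1 fell to 420 ± 61.6 CPM in the knockout, against 526 ± 20.6 CPM in wild type (-0.32 ± 0.11, adjusted p = 0.0290), and its inhibitor IMPACT fell to 17.5 ± 2.25 CPM in the knockout, against 27.4 ± 0.495 CPM in wild type (-0.64 ± 0.14, adjusted p = 0.00328). Of these 3 genes, 2 fell, where 29.8% of all genes tested were called lower, and 1 fell without knockout replicate 1 or 3.

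The mitochondrial ribosome has its own stalk, built from MRPL10 and MRPL12, and neither gene passed the test. MRPL10, which takes the place of RPLP0, was at 37.0 ± 2.93 CPM in the knockout and 43.7 ± 0.343 CPM in wild type (adjusted p = 0.0750). MRPL12, which carries the mobile domains, was at 87.5 ± 14.3 CPM in the knockout and 81.2 ± 4.03 CPM in wild type (adjusted p = 0.514). MRPL11 at the stalk base rose, with a log2 fold change of 0.25 ± 0.09, as did the elongation factor genes GFM1 (0.38 ± 0.08) and GFM2 (0.49 ± 0.10). TUFM did not pass, at 383 ± 38.1 CPM in the knockout and 375 ± 9.44 CPM in wild type. Of 6 genes tested edgeR called 3 higher, where it called 30.2% of all genes tested higher and 29.8% lower. DESeq2 called 2 of the 6 higher, and both methods called 0 lower. MRPL10 was lower at an unadjusted p under 0.05 in edgeR. Library totals gave 1 rise and 1 fall, all 3 rises were lost without wild-type replicate 1, and 1 gene fell without knockout replicate 2.

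**Figure D4:**
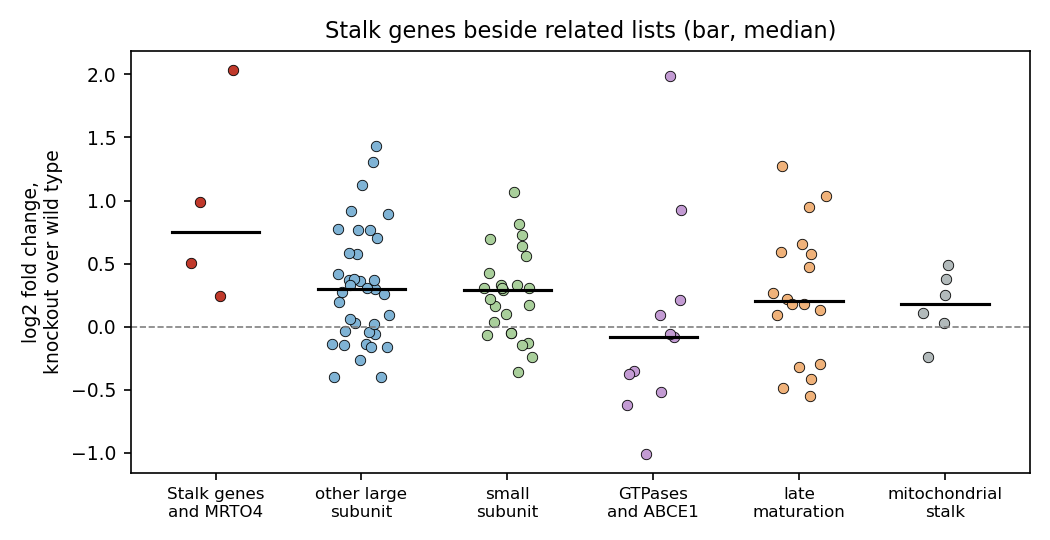
Log2 fold change, knockout over wild type, of each gene tested in the stalk group and in related lists, with a bar at each median. RPLP1 at 2.04 is the highest point of the stalk group, whose members were picked with this comparison known, and the medians of the large and small subunit are 0.30 and 0.29.

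Genes whose levels followed those of a member most closely over the 5 libraries were of varied kinds. Likeness was the root mean square difference between log2 CPM values, each centred on the mean of its gene. For RPLP1 these were PIGG (0.024), SLC16A10 (0.031) and DIAPH1 (0.032), with log2 fold changes of 2.03, 1.99 and 2.05. For RPLP0 they were ABHD2 (0.017), MTG2 (0.021) and MRS2 (0.026). REV3L (0.013), MET (0.021) and TPP2 (0.024) were closest to RPLP2. METAP1 (0.013), EIF5 (0.017) and APLP2 (0.018) were closest to MRTO4. With 11205 genes and 5 libraries such near matches follow mainly from a like fold change, and no other stalk gene was among them.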

How the data were processed

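Ribosome footprints were measured in 5 HAP1 libraries. Per the labels' protocols, RNase I was added to cycloheximide lysates, monosomes were taken from a sucrose gradient, and protected fragments 28 to 32 bases long became libraries. Bowtie, with no version, and hg38 are named in the submitters' processing notes. The deposited table holds raw counts per transcript and symbol, as whole numbers. Its header line is shifted by 1 cell against its values, which was allowed for. How reads were assigned to genes, deduplicated or resolved between several places is not given in the sources used here. The table has 13638 rows, of which 11205 passed filterByExpr (minimum count 10) and 2433 did not.

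Counts were fitted in R 4.3.3 with edgeR 4.0.16 (TMM, glmQLFit and glmQLFTest with a genotype term alone; calls at a Benjamini-Hochberg adjusted p under 0.05 over all rows tested). SE is the log2 fold change divided by the square root of F. DESeq2 1.42.0, other scalings, filters, summed rows or libraries, a replicate block and leaving out each library were alternatives. The members and lists were chosen with earlier results of these data known, so members carry no test. Named genes were the members, ZCCHC4, up to 3 genes per list with the smallest adjusted p, all genes of lists with 7 or fewer, a few by role, and 3 likeness genes per member. The lists were other large-subunit and small-subunit ribosomal proteins, stalk base proteins, translational GTPases with ABCE1, late maturation factors, casein kinase 2, the GCN2 arm, the mitochondrial stalk, blood cell markers and HAP1 origin genes. Of the latter, BCR was at 4.44 ± 0.154 CPM in the knockout and 6.83 ± 0.636 CPM in wild type, and ABL1 at 0.646 ± 0.111 CPM in the knockout and 1.15 ± 0.570 CPM in wild type (SD, n = 3 and n = 2). Coding sequences came from GENCODE release 29 and promoters from RefSeq, which held all 4 members. One gene that the naming rule selects is not reported here. The procedure was tested on simulated data.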

Additional observations from a re-analysis of the deposited data

How the results depend on the processing

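The log2 fold changes of the 4 stalk genes and their 4 within-library ratios kept their sign under all alternatives run. Library totals gave 0.78 for RPLP0, 1.82 for RPLP1, 0.028 for RPLP2 and 0.28 for MRTO4. A mean count of at least 50 gave 1.96 for RPLP1, 0.18 for RPLP2 and 0.43 for MRTO4, and upper quartile scaling 0.18 for RPLP2 and 0.44 for MRTO4. Counts of calls on the related lists moved more. With library totals there were 14 higher and 12 lower among other large-subunit genes, 7 and 7 in the small subunit, 2 lower at the stalk base, and 1 higher and 1 lower in the mitochondrial stalk. Summing both wild-type libraries, and knockout replicates 1 and 3, left 1 wild-type sample, so its calls are not counted here. The log2 fold changes were then 1.04 for RPLP0, 2.07 for RPLP1, 0.24 for RPLP2 and 0.49 for MRTO4. A mean count of at least 50 gave 4 lower in the small subunit and 1 in the mitochondrial stalk, where upper quartile scaling also gave 1. Without a filter 3 GTPases were called higher. Leaving out 1 library gave between 2 and 5 lower for the large subunit, 8 and 17 higher and 1 and 4 lower for the small subunit, 1 and 4 higher and 2 and 5 lower for the GTPases, 6 and 12 higher and 0 and 5 lower for late maturation, 0 and 1 lower for casein kinase 2, 1 and 2 lower for the GCN2 arm, and 0 and 3 higher and 0 and 1 lower for the mitochondrial stalk. The cause of these moves was not tested.

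Replicate numbers 1 and 2 occur in both genotypes. Deviations of libraries with the same number from their genotype mean correlated at -0.09 and -0.08. With 2 wild-type libraries the wild-type deviations are equal and opposite by construction. These correlations therefore cannot decide whether libraries of the same number were paired or shared a batch. With the replicate number as a replicate block, edgeR called 6094 genes in place of 6721, the RPLP1 log2 fold change stayed within its spread, GTPases gave 3 higher, casein kinase 2 gave 0 lower and the GCN2 arm 1 lower. The depth of the wild-type libraries limits genes under 0.517 and 0.560 CPM, far below the stalk genes.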
